A study of Homo sapiens with 6 samples.

Results

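The miR-181 family comprises short regulatory RNAs cut from 6 hairpin precursors at 3 places in the human genome. Described here are the 8 mature arms hsa-miR-181a-5p, hsa-miR-181a-3p, hsa-miR-181a-2-3p, hsa-miR-181b-5p, hsa-miR-181b-3p, hsa-miR-181c-5p, hsa-miR-181c-3p and hsa-miR-181d-5p (written below without the species prefix), which were chosen by name and make up 8 of the 1582 miRNAs in the count table. They were measured by small-RNA sequencing in MDA-MB-231, an established triple-negative breast cancer line that resists retinoic acid. 3 control libraries came from non-transfected cells. 3 RARαS77A libraries came from cells overexpressing a retinoic acid receptor alpha in which alanine replaces the serine that is normally phosphorylated. For stable overexpression the paper used a lentiviral backbone with a green fluorescent protein tag, and its sequencing methods do not name the vector. The controls received no empty vector, so the mutant receptor and its delivery cannot be told apart. Both groups are the same cell line with its own receptor in place. The labels do not say whether the 3 libraries of a group are separate cultures, so p-values measure the spread between these libraries, which may be technical.

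A miRNA hairpin is cut by Drosha in the nucleus and Dicer in the cytoplasm into a duplex of a 5p arm and a 3p arm. One strand, the guide, is usually kept by an Argonaute protein and pairs with target messages through its seed, whereas the other strand, the passenger, is mostly degraded. Here the 5p arms of miR-181 are called guides and the 3p arms passengers, although the 3p arm of MIR181C held more counts than its 5p arm in every control library. The miR-181 guides are best known from blood cells, where they tune the sensitivity of the T-cell receptor and the development of B and T lymphocytes. In breast cancer they have been studied as miRNAs induced by TGF-β.

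The guide sequences are shown because all 4 share a seed and differ only outside it, so that near-identical reads have to be told apart by the counting. They are from RefSeq (GRCh38.p14), written from the 5′ end, with the seed (bases 2 to 8) in capitals.
miR-181a-5p: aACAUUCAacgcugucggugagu
miR-181b-5p: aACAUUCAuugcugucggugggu
miR-181c-5p: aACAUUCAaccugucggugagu
miR-181d-5p: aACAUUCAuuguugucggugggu
miR-181a-5p and miR-181c-5p are 1 edit (a changed, added or lost base) apart, as are miR-181b-5p and miR-181d-5p, whereas miR-181a-5p and miR-181b-5p are 3 edits apart. The sources used here do not say how reads that match more than 1 of them were assigned, so the levels of miR-181c-5p and miR-181d-5p, the rarer member of each close pair, are uncertain. Only 5 of the 2370 mature names in the RefSeq table carry this seed, and the fifth, miR-4262, has no row in the count table.

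The passenger sequences are shown because each comes from a single hairpin, whereas miR-181a-5p and miR-181b-5p, the main guides, are each cut from 2.
miR-181a-3p: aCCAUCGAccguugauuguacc
miR-181a-2-3p: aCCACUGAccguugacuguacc
miR-181b-3p: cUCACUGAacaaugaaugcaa
miR-181c-3p: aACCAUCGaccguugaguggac
miR-181a-3p and miR-181a-2-3p are 3 edits apart and have different seeds. miR-181c-3p holds the CCAUCGA letters of miR-181a-3p 1 base further from its 5′ end.

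The identical miR-181a-5p is cut from 2 hairpins, and both are given because much of what follows turns on the arm that separates them. Capitals mark the 5p arm and then the 3p arm.
MIR181A1: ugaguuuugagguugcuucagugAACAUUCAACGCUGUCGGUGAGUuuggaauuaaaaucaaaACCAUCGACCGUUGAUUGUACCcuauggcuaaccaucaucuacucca
MIR181A2: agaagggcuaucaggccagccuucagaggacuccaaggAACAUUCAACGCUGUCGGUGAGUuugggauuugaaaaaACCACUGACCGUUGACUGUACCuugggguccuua
MIR181A1 lies at chr1:198859044-198859153 on the minus strand, 61 bases from MIR181B1 at chr1:198858873-198858982, and both are intronic in MIR181A1HG, a long non-coding RNA on the same strand (GRCh38, GENCODE release 29). MIR181A2 lies at chr9:124692442-124692551 on the plus strand, 1158 bases from MIR181B2 at chr9:124693710-124693798, within introns of MIR181A2HG on the same strand and of NR6A1 on the opposite strand. MIR181C, at chr19:13874699-13874808, and MIR181D, at chr19:13874875-13875011, are 66 bases apart on the plus strand in an intron of NANOS3. miR-181b-5p, like miR-181a-5p, is cut at both the chromosome 1 and the chromosome 9 locus, so neither guide tells these loci apart.

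The libraries held 9019266 to 11338580 counts each. Of 1582 miRNAs, 506 had enough counts to be tested with edgeR, and 107 of them (21.1%) were called lower and 118 (23.3%) higher in RARαS77A at an adjusted p under 0.05. This split depends on the scaling. TMM factors were 1.15 to 1.30 in the controls and 0.811 to 0.830 in RARαS77A, and with total counts in their place 213 were lower and 51 higher, and the median log2 fold change over all 506 moved from 0.06 to −0.51. With upper-quartile scaling 74 were lower and 141 higher and the median was 0.27. Of the markers of other cells, the 8 pluripotent stem cell miRNAs (the miR-302 cluster and miR-371a-3p to miR-373-3p) summed to 2, 1 and 3808 counts in control replicates 1 to 3 and to 2789, 2855 and 2848 counts in RARαS77A. Control replicate 3 therefore resembled the RARαS77A libraries in these miRNAs, and the values below are given per library, and the changes of single arms, arm ratios and guide measures also without it. In bulk RNA, fewer cells making a miRNA and less of it per cell cannot be told apart.

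Of the 8 arms, 7 passed the filter on low counts, and 5 of these 7 were called lower in RARαS77A (21.1% of all tested miRNAs were). The 5 were miR-181a-5p, miR-181a-3p, miR-181b-5p, miR-181b-3p and miR-181c-3p. None of the 7 was called higher by edgeR, DESeq2 or limma-voom, and 0 were higher at an unadjusted p under 0.05 in edgeR. The median log2 fold change of the 7 was −0.89, against 0.06 over all 506. miR-181b-3p and miR-181c-3p passed the filter only through their control counts. Arms this low in RARαS77A could be tested only if their controls were higher. The counts of arms in this paragraph, the median and the lack of overlap are therefore descriptions. The other tested arms had log2 fold changes of −1.39, −0.89, −0.44, −0.22 and −0.18. The same 5 arms had no overlap between the groups, with every RARαS77A library below every control library, which held for 27.1% of all tested miRNAs. Without control replicate 3, 5 arms were again called lower, against 22.1% of all miRNAs in that fit. The count was also 5 with a term for the libraries that carry the stem cell miRNAs (control replicate 3 and all RARαS77A libraries), a fit in which the group difference rests on control replicate 3 against RARαS77A and in which 10.9% of all miRNAs were called lower. The plot of scaled counts by library shows all 8 arms.

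**Figure D1:**
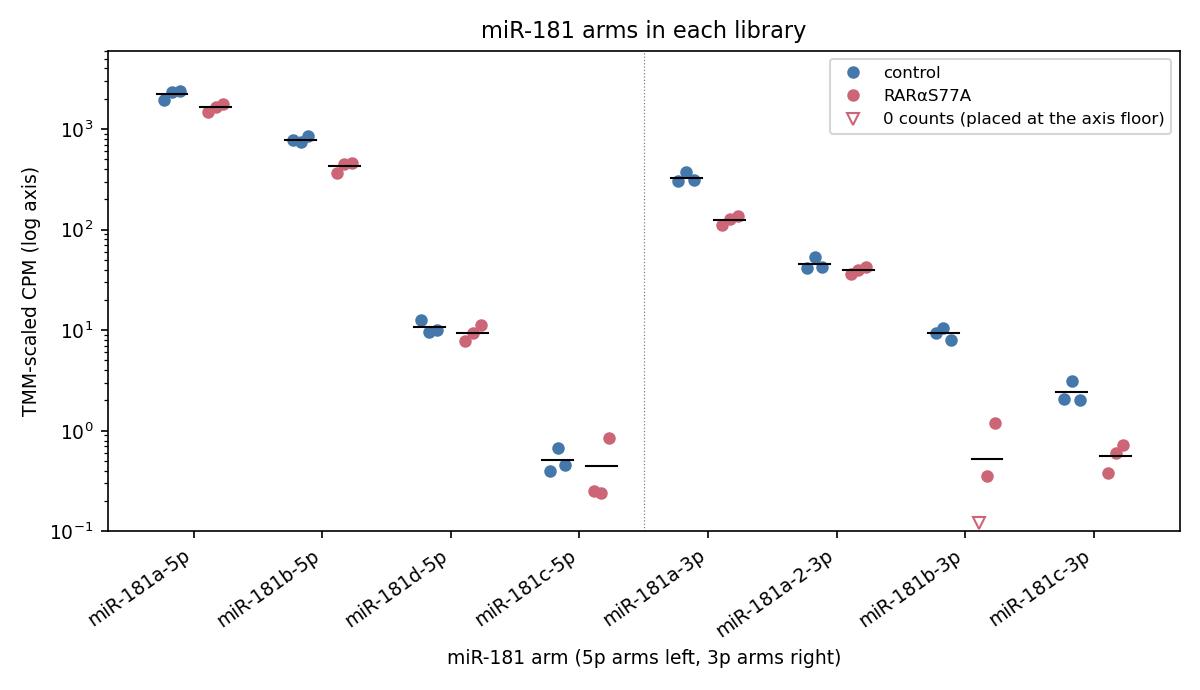
Levels in CPM (TMM-scaled, log axis) of the 8 miR-181 arms in each of the 3 control and 3 RARαS77A libraries. Points are libraries, bars are group means, and an open triangle at the foot of the axis stands for a library with 0 counts. The groups are apart for miR-181a-5p, miR-181a-3p, miR-181b-5p, miR-181b-3p and miR-181c-3p and overlap for miR-181a-2-3p, miR-181c-5p and miR-181d-5p.

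miR-181a-5p was the main guide, ranking 34 to 38 by count among all miRNAs of a library. It held 24223, 34700 and 26368 counts in the controls and 11658, 14047 and 14872 in RARαS77A. As CPM, the count relative to its library's TMM-scaled size, these were 1943, 2359 and 2409 CPM in the controls and 1483, 1673 and 1791 CPM in RARαS77A. The highest RARαS77A library lay just under the lowest control library. Means were 2237 ± 256 and 1649 ± 155 CPM (SD over 3 libraries each), and the log2 fold change was −0.44 (SE 0.11, edgeR adjusted p = 0.0176). This was the smallest of the 5 changes that were called, and its call was lost with upper-quartile scaling (−0.24, edgeR adjusted p = 0.211). It was −0.44 also when control replicate 3 was left out.

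miR-181b-5p, the second guide by level, fell as well. It stood at 770.4, 737 and 852 CPM in the controls and 362, 451 and 460.3 CPM in RARαS77A, on 2843 to 10837 counts a library. All RARαS77A libraries were well below all controls. The mean was 786 ± 59.3 CPM in the controls and 424 ± 54.5 CPM in RARαS77A, which was 1.85-fold lower (log2 −0.89, SE 0.12, edgeR adjusted p = 0.00101). The log2 change was again −0.89 without control replicate 3, and −1.01 with the stem cell miRNA term.

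The 2 guides of the chromosome 19 locus were rare and were not called. miR-181d-5p was at 12.6, 9.65 and 9.96 CPM in the controls and 7.76, 9.41 and 11.2 CPM in RARαS77A, from 61 to 157 counts. The groups overlapped, and the log2 fold change of −0.18 (SE 0.21, edgeR adjusted p = 0.498) was positive with upper-quartile scaling (0.03) and −0.29 without control replicate 3. miR-181c-5p had 5, 10 and 5 counts in the controls and 2, 2 and 7 in RARαS77A, too few to be tested in edgeR. Its summed counts were 20 and 11, and a difference was not detectable at this depth (two-sided exact permutation p = 0.6, where 3 against 3 libraries cannot go below 0.1).

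Adding the 4 guides gives the amount of RNA that carries the miR-181 seed. The sum was 2726, 3106 and 3272 CPM in the controls and 1853, 2134 and 2263 CPM in RARαS77A. The groups did not overlap, with means of 3035 ± 280 and 2083 ± 209.8 CPM (SD over 3 libraries each) and a log2 difference of −0.54 (two-sided exact permutation p = 0.1, the smallest this design allows). Without scaling beyond the total, the guides made up 0.315, 0.403 and 0.397% of all counts in the controls and 0.150, 0.175 and 0.188% in RARαS77A. The log2 difference was then −1.12, and −0.33 with upper-quartile scaling, so the size of the change in the guide sum depended on the scaling while its direction did not. Leaving out control replicate 3 gave −0.49 on the TMM scale.

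The makeup of the guide pool needs no scaling. miR-181a-5p was 71.3, 75.9 and 73.6% of the guide counts in the controls and 80.0, 78.4 and 79.1% in RARαS77A. miR-181b-5p was 28.3, 23.7 and 26.0% in the controls and 19.5, 21.1 and 20.3% in RARαS77A. Neither share overlapped between the groups, and their means moved by 5.57 and −5.67 percentage points (two-sided exact permutation p = 0.1 for each, 0.144 adjusted over 13 such measures), or by 5.58 and −5.65 points without control replicate 3. The share of miR-181d-5p, at 0.359 ± 0.0891% and 0.452 ± 0.0391%, overlapped (exact permutation p = 0.3). Expressed as a ratio, there were 2.85 ± 0.341 counts of miR-181a-5p for each count of miR-181b-5p in the controls and 3.90 ± 0.197 in RARαS77A (SD, n = 3 each).

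**Figure D2:**
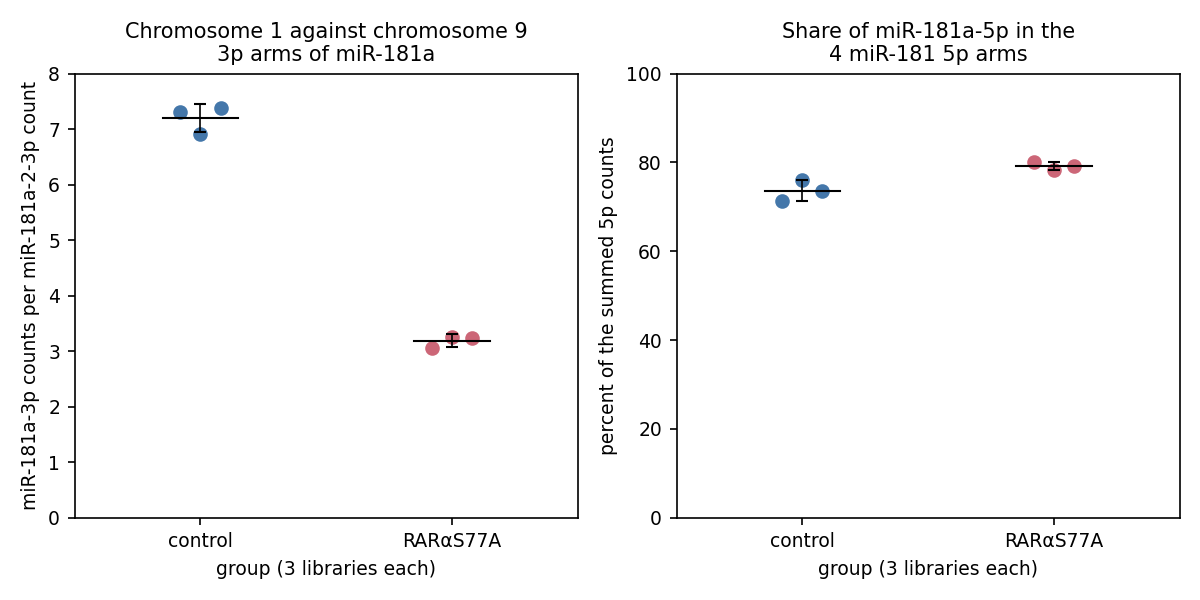
Measures within a library that need no scaling, for 3 control and 3 RARαS77A libraries. Points are libraries, bars are means and error bars are SD. The counts of miR-181a-3p per count of miR-181a-2-3p lie between 6.91 and 7.38 in the controls and between 3.05 and 3.26 in RARαS77A, and the share of miR-181a-5p among the guide counts is higher in every RARαS77A library than in any control.

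Among the passengers, miR-181a-3p, which is cut from MIR181A1 on chromosome 1, was the most abundant and was called lower. Its counts were 3782, 5455 and 3410 in the controls and 870, 1079 and 1143 in RARαS77A, or 303, 371 and 312 CPM against 111, 129 and 138 CPM. Every control library was above 2 times the level of every RARαS77A library. Its mean of 126 ± 13.7 CPM in RARαS77A was 2.62-fold lower than the 329 ± 36.8 CPM of the controls (SD over 3 libraries each), a log2 fold change of −1.39 (SE 0.13, edgeR adjusted p = 0.000249) that kept its call under all alternatives run. Leaving out control replicate 3 gave −1.48, and the stem cell miRNA term −1.31.

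miR-181a-2-3p, the passenger of the same guide from MIR181A2 on chromosome 9, was not called. It was at 41.5, 53.7 and 42.2 CPM in the controls and 36.3, 39.4 and 42.4 CPM in RARαS77A, on 285 to 790 counts. The highest RARαS77A library was above the lowest control, and the log2 fold change was −0.22 (SE 0.17, edgeR adjusted p = 0.319), or −0.33 without control replicate 3. With total-count scaling both miR-181a-2-3p (−0.80, edgeR adjusted p = 0.0122) and miR-181d-5p (−0.75, edgeR adjusted p = 0.0186) were called lower, against a median of −0.51 over all tested miRNAs on that scale.

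The 2 passengers can be set against each other inside a library, which removes the scaling and compares the chromosome 1 and chromosome 9 hairpins that give the same guide. For each count of miR-181a-2-3p there were 7.32, 6.91 and 7.38 counts of miR-181a-3p in the controls and 3.05, 3.26 and 3.25 in RARαS77A. The controls lay close together, control replicate 3 included, and so did the RARαS77A libraries. The mean ratio was 7.20 ± 0.258 in the controls and 3.19 ± 0.116 in RARαS77A (SD, n = 3 each), a log2 difference of −1.18 (two-sided exact permutation p = 0.1, 0.144 adjusted over 13 measures). As a share, miR-181a-3p made up 88.0, 87.3 and 88.1% of the 2 passengers together in the controls and 75.3, 76.5 and 76.5% in RARαS77A, a difference in means of −11.7 percentage points. Leaving out control replicate 3, the log2 difference of the ratio was −1.16 and that of the share −11.6 points. The lowest 95% Wilson bound of a control library was 86.5% and the highest of a RARαS77A library 78.7%, where these intervals cover counting error only. The level of a passenger reflects both how much of its hairpin is made and how much of the strand is kept, and these cannot be told apart in counts of mature arms. The comparison uses 1 passenger of each locus. The other chromosome 9 passenger, miR-181b-2-3p, had 15, 15 and 7 counts in the controls and 1, 0 and 6 in RARαS77A. It did not pass the filter, so these values do not describe the whole chromosome 9 locus.

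miR-181b-3p, the passenger of MIR181B1 on chromosome 1, was near 0 in RARαS77A. Its counts were 118, 155 and 87 in the controls and 0, 3 and 10 in RARαS77A, or 9.47, 10.5 and 7.95 CPM against 0, 0.357 and 1.20 CPM. Even the RARαS77A library with the most counts was far under every control. It passed the filter only through its control counts, so the fitted log2 fold change of −4.12 (SE 0.62, edgeR adjusted p = 0.00171) is given as a description, and it was −4.29 in the fit with no filter. With a library at 0 its size depends on the prior count and on single libraries, and was −3.62 without RARαS77A replicate 1 and −5.59 without RARαS77A replicate 3. In RARαS77A replicate 1, a count of 0 allows up to 0.382 CPM (3 counts). Without control replicate 3 the log2 fold change was −4.27.

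miR-181c-3p, from MIR181C on chromosome 19, had 26, 46 and 22 counts in the controls and 3, 5 and 6 in RARαS77A. These were 2.09, 3.13 and 2.01 CPM and 0.382, 0.595 and 0.722 CPM, with no overlap. This arm too passed the filter only through its control counts, so its log2 fold change of −2.07 (SE 0.38, edgeR adjusted p = 0.00388) is a description. It was −2.24 in the fit with no filter and −2.24 without control replicate 3. Its neighbour in the same intron, miR-181d-5p, was not called (−0.18), and no library exceeded 12.6 CPM for any of the 3 arms of the chromosome 19 locus described here.

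The balance of the 2 arms of a hairpin was then tested as a ratio, the rarer arm over the more abundant one, in 141 pairs of arms with limma. Of these pairs, 60 (42.6%) had a lower ratio in RARαS77A and 17 (12.1%) a higher one, and the median log2 change was −0.41. When control replicate 3 was left out, 53 were lower and 16 higher. 3 miR-181 pairs had enough counts, and 2 of them were called lower. One of these, the miR-181b-3p pair, had enough counts only through its controls, so its call is a description. Pairs are not independent, since miR-181a-5p is the partner of both of its passengers.

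miR-181a-3p stood at 15.6, 15.7 and 12.9% of the miR-181a-5p count in the controls and at 7.46, 7.68 and 7.69% in RARαS77A. The log2 change of the ratio was −0.95 (SE 0.13, 95% interval −1.24 to −0.66, limma adjusted p = 0.00023). It ranked 48 of 141 from the lowest, a position within the bulk of pairs that were called lower. miR-181a-2-3p stood at 2.13, 2.28 and 1.75% of the miR-181a-5p count in the controls and 2.44, 2.36 and 2.37% in RARαS77A. The RARαS77A libraries were all above the controls, but the log2 change of 0.23 did not pass the test (SE 0.14, 95% interval −0.09 to 0.54, limma adjusted p = 0.200). The changes of the miR-181a-3p and miR-181a-2-3p ratios were −1.04 and 0.12 without control replicate 3. With the stem cell miRNA term they were −0.76 and 0.45.

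miR-181b-3p stood at 1.23, 1.43 and 0.933% of the miR-181b-5p count in the controls and at 0, 0.0792 and 0.262% in RARαS77A. Its log2 change of −3.95 (SE 0.79, 95% interval −5.73 to −2.18, limma adjusted p = 0.00252) was the lowest of the 141 pairs. This pair met the count minimum only through the control counts of miR-181b-3p, so the change and its rank are a description. The call was lost with the stem cell miRNA term (−3.62, limma adjusted p = 0.0973) and without a filter on the rarer arm (limma adjusted p = 0.0537), whereas it held without control replicate 3 (−4.12). The size moved from −2.89 without RARαS77A replicate 1 to −4.88 without RARαS77A replicate 3, and was −2.33 with 5 instead of 0.5 added to each count. In MIR181C the 3p arm is the more abundant, and miR-181c-5p stood at 19.2, 21.7 and 22.7% of the miR-181c-3p count in the controls and 66.7, 40 and 116.7% in RARαS77A. These rest on 2 to 10 counts of miR-181c-5p, too few for the main test, and in RARαS77A on 3, 5 and 6 counts of miR-181c-3p. With no filter on the rarer arm the log2 change of 1.68 (95% interval 0.60 to 2.75) did not pass the threshold (limma adjusted p = 0.0573).

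Lower calls were also more frequent among rarer arms than among abundant arms over the whole table. Of 140 rarer arms tested in edgeR, 48 (34.3%) were lower and 18 (12.9%) higher, with a median log2 fold change of −0.28. Of 132 abundant arms, 27 (20.5%) were lower and 42 (31.8%) higher, with a median of 0.22. Lower ratios of the rarer arm were therefore common in these libraries, and the part of this table-wide shift in the miR-181 ratios was not tested.

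**Figure D3:**
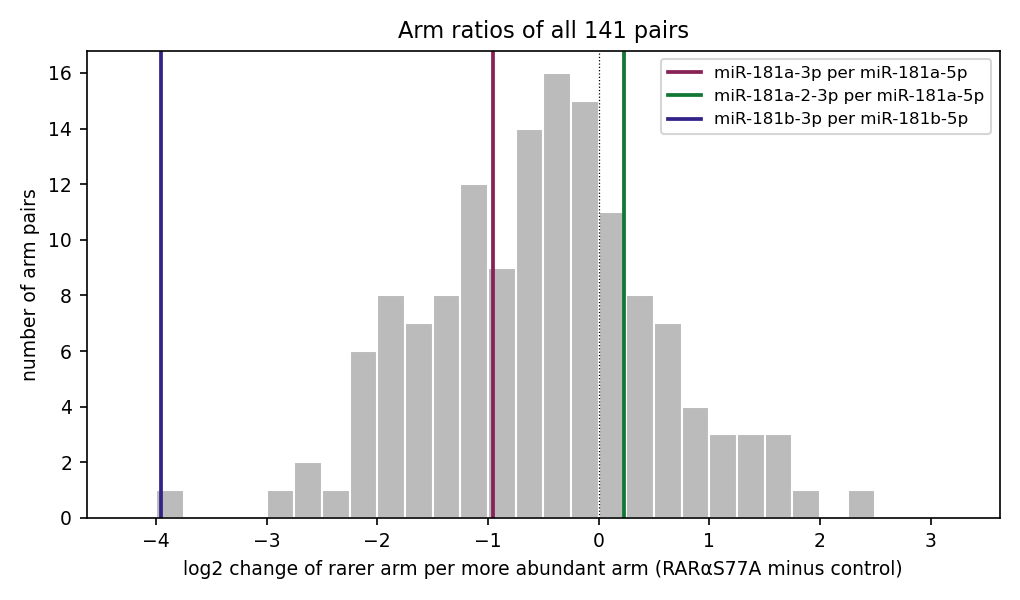
Log2 change of the rarer-to-abundant arm ratio in RARαS77A against control for all 141 pairs tested with limma, with the 3 miR-181 pairs marked. miR-181b-3p is the lowest pair at −3.95, miR-181a-3p lies at −0.95 among the many pairs below the median of −0.41, and miR-181a-2-3p lies above it at 0.23. The miR-181b-3p pair met the count minimum only through its control libraries.

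The profile of miR-181a-5p over the 6 libraries was most like those of miR-10a-3p, miR-23b-3p and miR-516a-5p, with a root mean square difference of 0.0653, 0.0755 and 0.0922 in centred log2 CPM. That of miR-181a-3p was most like those of miR-21-3p, miR-210-3p and miR-106b-5p, at 0.108, 0.133 and 0.143. In the tested pairs, miR-21-3p and miR-106b-5p were the rarer arms, and so was miR-10a-3p from the profiles nearest to miR-181a-5p. By contrast, miR-210-3p, known as a hypoxia-induced miRNA, and miR-23b-3p were the more abundant arms of their pairs. miR-516a-5p, at 3.31 to 5.39 CPM, was in no tested pair. Over the table, 140 rarer and 132 abundant arms were tested in edgeR, so both kinds are common. The profiles hold the difference between the groups, so near profiles are in part those with a similar change.

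For context, other miRNAs linked to breast cancer metastasis were counted in the same fit. The list was not split by whether a member favours or restrains metastasis, so its counts give no direction for metastasis. Of 14 listed, 9 were tested, and 4 were called higher and 0 lower, against 23.3% and 21.1% of all tested miRNAs (1 lower at an unadjusted p under 0.05 in edgeR, and 1 lower in DESeq2), with a median log2 fold change of 0.65. The 4 were miR-21-5p (0.65, edgeR adjusted p = 0.0482), an abundant oncogenic miRNA, miR-9-5p (1.02, edgeR adjusted p = 0.00171), which targets E-cadherin, the endothelial miR-126-3p (1.26, edgeR adjusted p = 0.000237) and miR-146b-5p (1.15, edgeR adjusted p = 0.000712), which restrains NF-κB signalling. The change of miR-21-5p depends on the TMM scaling. It made up 51.4, 44.7 and 47.4% of all counts in the controls and 51.5, 49.8 and 50.4% in RARαS77A, and these shares overlapped. With total-count scaling, 3 of the 9 were lower and 2 higher, on a scale where 42.1% of all miRNAs were lower. Without a filter on low counts 3 of 13 were lower and 4 higher, against 162 lower (10.2%) and 117 higher of all 1582 miRNAs. Of 12 hematopoietic miRNAs, the group in which miR-181 is usually placed, 6 were tested. Of these, 0 were called in either direction by edgeR, DESeq2 or limma-voom, where edgeR called 21.1% of all tested miRNAs lower and 23.3% higher. At an unadjusted p under 0.05 in edgeR 2 were higher and 0 lower, and the median was −0.06. With no filter on low counts, 1 of the 12 was called lower by edgeR, against 10.2% of all miRNAs in that fit. Their summed counts were 434 to 712 in the controls and 357 to 456 in RARαS77A, and all 12 are present in the table.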

How the data were processed

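Small RNA of 6 MDA-MB-231 libraries (3 control, 3 RARαS77A) was sequenced by the authors, who deposited a table of read counts per mature miRNA with matching TPM values. The submitters' processing notes name Bowtie, whereas genome build, miRNA annotation and counting rules were not given in the sources used. The deposited TPM values equal CPM, the count scaled to its column total, within 4.74e-05, so only the counts were tested. Depth was 9019266 to 11338580 counts a library.

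edgeR 4.0.16 in R 4.3.3 fitted the quasi-likelihood test to the whole table (TMM scaling, filterByExpr with a minimum count of 10, 506 of 1582 miRNAs kept, Benjamini-Hochberg adjustment, limit 0.05). CPM values in the text use TMM-scaled library sizes. Ratios of the rarer to the more abundant arm (0.5 added to each count, mean count of the rarer arm at least 10) were tested with limma 3.58.1 with an intensity trend over 141 pairs. Single values per library were tested with two-sided exact permutation tests in scipy 1.17.1. The profile comparison used log2(CPM + 0.1). The tests were also run on simulated counts with known changes. For arm ratios these had the same dispersion for every arm and no table-wide shift, unlike the real pairs, so they do not check single ratios.

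Alternatives were other scalings (total counts, upper quartile, relative log expression), no filter, DESeq2 1.42.0, limma-voom, a replicate block, a term for libraries carrying the stem cell miRNAs, each library left out, and for ratios another added count and other filters. The members and lists were chosen with earlier results of these data known. Named beyond the 8 arms are other arms of the 6 precursors, miRNAs with the same seed, the 3 nearest profiles of miR-181a-5p and miR-181a-3p, and list members.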

Additional observations from a re-analysis of the deposited data

How the results depend on the processing

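The number of miR-181 arms called lower was 5 by default, 7 with total counts, 4 with upper-quartile scaling and 5 in each other alternative, including each library left out, and 0 were called higher in all of them. Over all 506 miRNAs, 107 were lower and 118 higher by default, 213 and 51 with total counts, and 55 and 76 with the stem cell miRNA term. Without a filter, 162 of 1582 were lower and 117 higher. The shares called lower were 21.1% by default, 42.1% with total counts, 14.6% with upper-quartile scaling and 24.1% with relative log expression. They were 10.2% without a filter, 7.56% in DESeq2, 21.1% in limma-voom and 18.6% with the replicate block. With the stem cell miRNA term the share was 10.9%, and with each library left out 17.8 to 22.1%. The log2 difference of the guide sum was −1.12 with total counts and −0.33 with upper-quartile scaling, and −0.62 to −0.46 with each library left out. The number of miR-181 arm ratios called lower went from 2 to 1 without a filter on the rarer arm and to 1 with the stem cell miRNA term, in both through miR-181b-3p, while over all pairs 60 of 141 were lower by default, 49 of 465 without the filter and 31 of 141 with the term. Over the single arms and ratios, 125 values kept their direction and side of the threshold, 1 uncalled value changed sign (miR-181d-5p, 0.03 with upper-quartile scaling), 2 gained a call and 3 lost one. The cause of these changes was not tested.

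The replicate numbers of the labels did not pair the libraries: the deviations of same-numbered libraries correlated at 0.0386, 0.0996 and 0.0247, and control replicate 3 correlated better with RARαS77A replicate 1 (0.0618) than with its own number. With the replicate block, 5 arms and 2 arm ratios were again called lower, and 94 miRNAs were lower and 107 higher over the table. Depth limits miR-181c-5p, with at most 10 counts a library, and the size of the change of miR-181b-3p.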

Other observations

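The table holds 2 further arms of the miR-181 precursors. miR-181b-2-3p, the passenger of MIR181B2 on chromosome 9, had 15, 15 and 7 counts in the controls and 1, 0 and 6 in RARαS77A, and did not pass the filter (two-sided exact permutation p = 0.2, with overlapping groups at 0.640 to 1.20 CPM against 0 to 0.722 CPM). Without a filter, its log2 fold change was −1.88 in edgeR (adjusted p = 0.0364) and −1.85 in DESeq2 (adjusted p = 0.216). miR-181d-3p had 1 count, in RARαS77A replicate 2.

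Markers of other tissues were high or low in single libraries. The 4 muscle miRNAs summed to 989, 30 and 46 counts in the controls and 37, 49 and 40 in RARαS77A, the liver miRNA miR-122-5p had 466, 99 and 483 counts against 499, 355 and 527, and the endocrine miRNA miR-375-3p had 19, 870 and 54 counts against 44, 53 and 46.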
